A study of Mus musculus with 9 samples.

Results

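The DNA replication machinery was examined in mouse leukemia stem cells as a set of 36 genes, taken from the 19057 genes that the array platform names. Every array probe that the platform assigns to a member was used, 78 probes in all. A probe counted as detected where 3 or more of the 9 arrays gave it a detection p under 0.05. By this rule 54 probes of 33 members were detected, against 8027 detected genes in the whole series, and Prim1, Slbp and Orc1 had none. Of the 54 probes, 40 were detected on all 9 arrays and 8 on no control array.

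The leukemia in all 3 groups was driven by MLL-AF9, a fusion oncogene of acute myeloid leukemia. The cells came from the bone marrow of mice at the fourth round of transplantation, with the strain background C57BL/6 and the genotype Actin-dsRed, a red fluorescent label, and they were sorted as low for the dye Hoechst, positive for dsRed and CD34, and high for c-kit and FcyRII. A short hairpin RNA against Csnk1a1, the casein kinase 1 alpha gene, was carried by 3 samples with hairpin 94 (replicates 1, 2 and 3) and by 3 with hairpin 97 (replicates 4, 5 and 6). The control, 3 samples (replicates 1, 2 and 3), carried a hairpin against luciferase (Luc). The labels give no age of the mice and no time after the hairpin was introduced. They leave unsaid whether replicates were separate animals or cultures, so a p-value here reflects only how much these samples differ, which may be technical. The single Csnk1a1 probe was detected on 0 of the 9 arrays, so these arrays do not check the knockdown.

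DNA is copied from origins that are licensed before S phase, when ORC, Cdc6 and Cdt1 load the ring of Mcm subunits onto DNA. Mcm10, Cdc45 and the GINS complex turn that ring into an active helicase, polymerases copy both strands behind it with the Pcna clamp and its loader, and flap endonuclease and ligase join the lagging strand pieces. Most of these genes are transcribed late in G1 under E2F factors, and their messages are commonly read as a sign of cycling in leukemia and normal progenitors.

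The arrays differed in brightness by group. Between 13053 and 14280 probes were detected on the hairpin 94 arrays and between 12969 and 14168 on the hairpin 97 arrays, against 9262 to 10347 on the Luc arrays. The mean raw signal was 167.6 to 195.8 units with hairpin 94 and 174.6 to 201.1 with hairpin 97, against 129.3 to 131.7 in Luc. Raw signals of all 40 member probes detected on every array, whichever way they were called below, were higher on all 6 knockdown arrays than on all 3 Luc arrays, and so were 85.4% of the 6891 such probes of the whole array. The values below are log2 signals after background correction and quantile normalization, so each describes a probe relative to the rest of its array.

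Replication probes were more often higher than lower in Csnk1a1 knockdown cells relative to Luc. With the mean of hairpins 94 and 97 set against Luc, 26 of the 54 detected member probes were higher (48.1%) and 6 were lower (11.1%), while 22 did not pass. Over all 13641 detected probes the shares were 25.0% higher and 15.2% lower. Each count below by role or list, for the mean of both hairpins, stands against these shares and was not tested as a set. The median log2 difference was 0.40 over the member probes, or 0.30 with the probes unseen in Luc set to their bounds, against 0.11 over all probes. At the level of genes, 20 members had a probe that was higher, 6 had one that was lower, Gins2 had both and 8 had no call. The 8 probes that no Luc array detected entered the set through the knockdown arrays alone. Among these 8, probes of Tyms, Cdc6, Rfc3, Lig1 and Rpa2 count among the 26 called higher. When only the 6891 probes detected on every array were fitted, 23 of the 40 member probes were higher and 7 lower. Of the calls in that fit, 76.7% were higher among members, against 46% of 3710 calls over all its probes.

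These calls come from limma with Benjamini-Hochberg adjustment over all detected probes, at an adjusted p under 0.05. The number of detected probes separated the knockdown arrays from the Luc arrays completely, so brightness and group cannot be told apart: with that number as a covariate 0 member probes and 0 of all probes passed, and 6 member probes had an unadjusted p under 0.05. In these bulk samples, fewer cells of a type and less RNA per cell cannot be told apart either.

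Each hairpin was also set against Luc alone, both times against the same 3 arrays. With hairpin 94, 18 member probes were higher and 6 lower, where the shares over all probes were 20.0% and 12.3%. With hairpin 97, 26 were higher and 5 lower, where the shares over all probes were 20.6% and 12.3%. The median log2 difference of the member probes was 0.37 with hairpin 94 and 0.47 with hairpin 97. With arrays scaled to probes detected on all of them, the balance for hairpin 94 turned to 13 higher and 17 lower, and for hairpin 97 the counts were 20 and 15. Under that scaling 43.3% of called members were higher with hairpin 94 and 57.1% with hairpin 97. Over all probes, 14.9% and 14.8% of calls were higher.

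**Figure D1:**
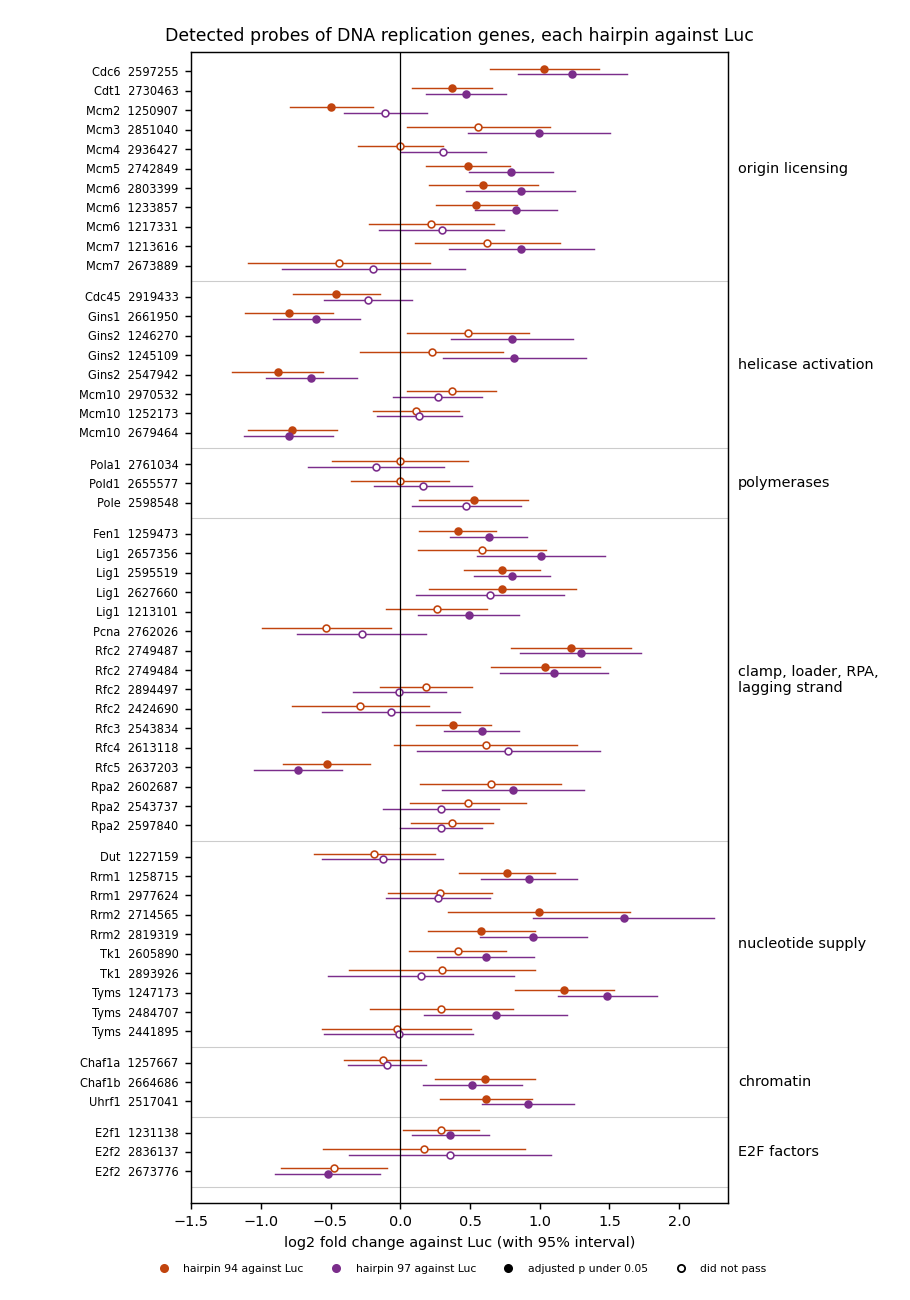
Log2 fold change against Luc (horizontal axis) of each of the 54 detected member probes (rows, with gene and probe number), grouped by role, with hairpin 94 above hairpin 97 in each row. Points are the fitted differences of 3 arrays against 3, lines their 95% intervals, and filled points passed an adjusted p under 0.05. Most licensing and nucleotide supply probes lie right of 0, and probes of Mcm10, Gins1, Gins2, Cdc45, Rfc5 and E2f2 lie left of it, which they do not when arrays are scaled to all probes.

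Origin licensing genes were higher on most of their probes. Of 11 detected probes of 8 licensing genes, 7 were higher and 0 lower, with a median log2 difference of 0.64. Cdc6, which recruits the Mcm ring to origins, gave log2 values of 5.35, 5.91 and 5.63 with hairpin 94 and 5.89, 6.04 and 5.55 with hairpin 97, against 4.55, 4.58 and 4.66 in Luc (probe ILMN_2597255). No Luc array detected this probe, so it passed the filter through the knockdown arrays alone, and all 6 of these lay above all 3. Under quantile normalization the signal was at least 1.72-fold higher in knockdown cells. The limma adjusted p of 0.0004157 belongs to the fitted difference of 1.13, not to this bound. The Cdc6 call was lost after cyclic loess, at a difference of 0.39 (limma adjusted p = 0.0566), and with arrays scaled to probes detected on all of them, at 0.02 for the mean and -0.07 for hairpin 94. Cdt1, its partner in loading, averaged 8.22 ± 0.09 log2 units in knockdown cells and 7.80 ± 0.13 in Luc (SD, n = 6 and 3), higher by 0.42 (SE 0.11, limma adjusted p = 0.01289).

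Among the ring subunits themselves the differences were unequal. Mcm5 gave log2 values of 10.6, 10.62 and 10.77 with hairpin 94 and 10.96, 10.9 and 11.05 with hairpin 97, against 10.09, 10.08 and 10.37 in Luc. The groups did not overlap, and the difference was 0.64 (SE 0.12, limma adjusted p = 0.001942). Mcm6 probe ILMN_2803399 gave 9.50, 9.33 and 8.93 with hairpin 94 and 9.53, 9.60 and 9.43 with hairpin 97, against 8.53, 8.53 and 8.92 in Luc. All 6 knockdown values were again above Luc, hairpin 94 replicate 3 by the least, and the difference was 0.73 (SE 0.15, limma adjusted p = 0.003927). A further Mcm6 probe, ILMN_1233857, was higher by 0.69 (limma adjusted p = 0.001157), and the remaining one, ILMN_1217331, differed by 0.26 and did not pass (limma adjusted p = 0.2607).

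Mcm7 probe ILMN_1213616 gave 6.76, 6.63 and 6.64 with hairpin 94 and 6.74, 6.93 and 7.09 with hairpin 97, against 5.50, 6.61 and 6.04 in Luc. The Luc arrays were far apart on it, the highest of them just under the lowest knockdown array, and the difference was 0.75 (SE 0.21, limma adjusted p = 0.01474). The other Mcm7 probe, ILMN_2673889, of the same transcript record, gave 6.672, 5.754 and 6.354 with hairpin 94 and 6.709, 6.265 and 6.545 with hairpin 97. Luc arrays gave 7.047, 6.033 and 7.017 on it. This probe went the opposite way, by -0.32, and did not pass (limma adjusted p = 0.3476). Mcm3 was higher by 0.78 (SE 0.20, limma adjusted p = 0.01101), though hairpin 94 replicate 3, at 7.37, fell within the Luc range of 7.20 to 7.62. Mcm4 and Mcm2 did not follow. Mcm4 differed by 0.16 (limma adjusted p = 0.3252). Mcm2 averaged 8.88 ± 0.23 in knockdown cells and 9.18 ± 0.13 in Luc (SD, n = 6 and 3), a difference of -0.30 that missed the threshold (limma adjusted p = 0.06124). In 7 of 20 alternative settings it was called lower, among them no background correction, probes detected on all arrays, and leaving out Luc replicate 3. When arrays were scaled to all probes it was 1.12 higher. With hairpin 94 alone, Mcm2 was lower by 0.49 on the log2 scale (limma adjusted p = 0.01821), a difference that became 0.92 higher when arrays were scaled to all probes.

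The promoters of 4 licensing genes that were higher show the letters searched for as E2F sites, TTTCCCGC, TTTCGCGC, TTTGCCGC or TTTGGCGC on either strand. They are shown because each of these members had a probe called higher, though a probe of Mcm6 and a probe of Mcm7 did not pass. The letters are a description of the sequence, not a measured binding site. Each stretch is read 5′ to 3′ in the direction of the gene and ends before the transcription start, from RefSeq on GRCm38.p6, with the E2F letters in capitals, which merge where matches overlap.
Mcm5: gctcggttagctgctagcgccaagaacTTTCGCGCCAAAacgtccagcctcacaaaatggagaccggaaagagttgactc
Mcm6: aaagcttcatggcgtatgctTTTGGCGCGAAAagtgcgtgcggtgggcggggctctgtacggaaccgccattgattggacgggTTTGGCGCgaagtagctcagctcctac
Mcm7: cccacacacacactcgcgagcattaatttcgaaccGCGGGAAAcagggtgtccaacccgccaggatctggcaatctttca
Cdc6: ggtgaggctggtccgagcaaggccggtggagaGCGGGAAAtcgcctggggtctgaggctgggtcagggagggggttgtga
The stretches lie at chr8:75109329-75109408 on the plus strand for Mcm5, chr1:128359726-128359835 on the minus strand for Mcm6, chr5:138172004-138172083 on the minus strand for Mcm7, and chr11:98907981-98908060 on the plus strand for Cdc6. In Mcm5 and Mcm6, matches on opposite strands overlap within a single block.

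Helicase activation was split under quantile normalization. Mcm10, Cdc45, Gins1 and Gins2, all 4 genes of the group, each had a probe that was lower. Against shares of 15.2% lower and 25.0% higher over all probes, 4 of the 8 detected probes were lower, 1 higher and 3 did not pass. When arrays were scaled to all probes these 4 probes were higher instead. Mcm10, which helps the loaded ring become active, gave 7.17, 7.21 and 7.37 log2 units with hairpin 94 and 7.41, 7.22 and 7.04 with hairpin 97, against 8.09, 8.09 and 7.89 in Luc (probe ILMN_2679464). The groups did not overlap, and this probe fell by 0.79 on the log2 scale (SE 0.13, limma adjusted p = 0.0008892).

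The other Mcm10 probes did not follow. Probe ILMN_2970532, assigned to the same transcript record, averaged 8.92 ± 0.14 in knockdown cells and 8.60 ± 0.13 in Luc (SD, n = 6 and 3), a difference of 0.32 with a limma adjusted p of 0.0627. In 5 alternative settings it was called higher, among them no background correction and probes detected on all 9 arrays. Probe ILMN_1252173, detected on 2 arrays with hairpin 94, 2 with hairpin 97 and 0 in Luc, differed by 0.12 (limma adjusted p = 0.4294).

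Gins1 and Gins2 are subunits of the GINS complex, which holds Cdc45 on the ring. Gins1 gave 7.11, 7.31 and 7.04 with hairpin 94 and 7.40, 7.42 and 7.23 with hairpin 97, against 7.82, 8.12 and 7.90 in Luc. All 6 knockdown values lay below Luc, and the probe fell by 0.70 (SE 0.12, limma adjusted p = 0.001562). Gins2 probe ILMN_2547942 gave 6.39, 6.22 and 6.40 with hairpin 94 and 6.53, 6.51 and 6.68 with hairpin 97, against 7.40, 6.96 and 7.27 in Luc. It fell by 0.76 without overlap (SE 0.13, limma adjusted p = 0.001267).

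A probe of the same Gins2 record passed in the opposite direction. Probe ILMN_1246270 gave 6.19, 6.50 and 6.23 with hairpin 94 and 6.58, 6.83 and 6.45 with hairpin 97, against 5.40, 6.16 and 5.90 in Luc. It was higher by 0.64 (SE 0.17, limma adjusted p = 0.01317), also without overlap. The remaining Gins2 probe, ILMN_1245109, on a separate cDNA record, differed by 0.52 (limma adjusted p = 0.06029), with hairpin 94 replicate 3 at 5.63 among Luc values of 5.53 to 6.22. Cdc45, the remaining helicase partner, averaged 8.50 ± 0.17 in knockdown cells and 8.84 ± 0.14 in Luc (SD, n = 6 and 3). It fell by 0.35 with overlapping groups, close to the threshold (limma adjusted p = 0.04496), and leaving out any array except Luc replicate 1 or hairpin 97 replicate 5 ended that call.

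The promoters of Mcm10 and Cdc45 hold none of the E2F letters and are shown as the counterpart of the licensing promoters above. Both do hold CCAAT, the letters that NF-Y factors read, printed here in capitals and appearing as ATTGG where they lie on the opposite strand. CCAAT does not set them apart, since the windows of Mcm5, Mcm6 and Mcm7 hold it too. It stands in lower case in the Mcm6 stretch above and lies outside the stretches of Mcm5 and Mcm7. Nor do the E2F letters follow the calls throughout: Rrm1, Rrm2, Fen1 and Chaf1b had higher probes, and their windows hold none.
Mcm10: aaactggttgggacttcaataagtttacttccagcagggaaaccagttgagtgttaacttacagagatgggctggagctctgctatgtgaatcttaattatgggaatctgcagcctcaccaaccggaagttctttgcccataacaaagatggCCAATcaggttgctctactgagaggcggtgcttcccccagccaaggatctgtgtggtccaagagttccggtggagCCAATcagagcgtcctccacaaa
Cdc45: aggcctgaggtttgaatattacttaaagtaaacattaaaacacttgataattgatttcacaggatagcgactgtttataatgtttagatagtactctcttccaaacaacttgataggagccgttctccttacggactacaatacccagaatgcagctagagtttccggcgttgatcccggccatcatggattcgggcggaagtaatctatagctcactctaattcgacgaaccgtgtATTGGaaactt
They lie at chr2:5012792-5013041 on the minus strand for Mcm10 and at chr16:18811975-18812222 on the minus strand for Cdc45, on GRCm38.p6.

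The polymerases showed little. Of 3 detected probes, 1 was higher. Pole, the catalytic subunit of the leading strand polymerase epsilon, averaged 5.82 ± 0.19 in knockdown cells and 5.32 ± 0.24 in Luc (SD, n = 6 and 3), higher by 0.50 without overlap (limma adjusted p = 0.02508). The Pole call was lost when Luc replicate 3, hairpin 94 replicate 2 or hairpin 97 replicate 6 was left out, and the difference was -0.13 when arrays were scaled to probes detected on all of them. Pold1, the catalytic subunit of polymerase delta, differed by 0.08 (limma adjusted p = 0.669). Pola1, the subunit of polymerase alpha that extends RNA primers, was detected on 1 array of each group and differed by -0.09 (limma adjusted p = 0.7378).

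Clamp loading and lagging strand genes gave a mixed picture once dim probes were set apart. In this group, which also takes in the clamp and single strand binding, 9 of 16 detected probes were higher and 1 lower, with a median log2 difference of 0.50, or 0.13 with probes unseen in Luc at their bounds. Of the 9, 3 (Rfc3, Lig1 ILMN_2627660 and Rpa2 ILMN_2597840) were seen on 0 Luc arrays, passed the filter through the knockdown arrays alone and were at -0.80, -0.64 and -1.04 when arrays were scaled to probes detected on all of them. Rfc2 is a subunit of the complex that opens Pcna and sets it on DNA. Its probe ILMN_2749487 gave 8.39, 8.23 and 7.63 with hairpin 94 and 8.01, 8.24 and 8.22 with hairpin 97, against 6.91, 6.69 and 6.99 in Luc. Probe ILMN_2749484 gave 8.82, 9.05 and 8.94 with hairpin 94 and 8.87, 9.08 and 9.05 with hairpin 97, against 7.81, 7.61 and 8.27 in Luc. Both lay wholly above Luc, with differences of 1.26 (SE 0.17, limma adjusted p = 0.000407) and 1.07 (SE 0.15, limma adjusted p = 0.0005256). The other Rfc2 probes, ILMN_2894497 and ILMN_2424690, differed by 0.09 and -0.18 and did not pass (limma adjusted p = 0.6059 and 0.4888).

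The other loader subunits were mixed. Rfc5 gave 7.73, 7.56 and 7.84 with hairpin 94 and 7.60, 7.56 and 7.35 with hairpin 97, against 8.32, 8.08 and 8.31 in Luc. It fell by 0.63 without overlap (SE 0.12, limma adjusted p = 0.002622), and when arrays were scaled to all probes it was 0.82 higher instead. Rfc3 was detected on all 6 knockdown arrays and on 0 Luc arrays, at least 1.02-fold higher under quantile normalization. Its fitted difference was 0.48 (limma adjusted p = 0.004746), and it was -0.80 when arrays were scaled to probes detected on all of them. Rfc4, detected on 1 Luc array, differed by 0.69 (limma adjusted p = 0.05209), with Luc replicate 2, at 6.02, above all 6 knockdown arrays.

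Lig1, the ligase that seals lagging strand pieces, had 4 detected probes, of which 3 were higher. Probe ILMN_2595519 gave 7.28, 7.50 and 7.38 with hairpin 94 and 7.43, 7.44 and 7.52 with hairpin 97, against 6.71, 6.63 and 6.64 in Luc. Spread within both sides was small, and the difference was 0.77 (SE 0.11, limma adjusted p = 0.0004992). The other Lig1 probes were dim. ILMN_2657356, detected on 2 Luc arrays, was higher by 0.80 (limma adjusted p = 0.005657). ILMN_2627660, detected on 0, was at least 1.12-fold higher under quantile normalization, with a fitted difference of 0.69 (limma adjusted p = 0.02277). ILMN_1213101 did not pass (limma adjusted p = 0.05531). The ILMN_2627660 call was lost after cyclic loess, with no filter on dim probes, and without Luc replicate 1, Luc replicate 3 or hairpin 94 replicate 1. Under the scaling to probes detected on all arrays it stood at -0.64, and ILMN_2657356, whose call cyclic loess also ended, at -0.03.

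Fen1, the nuclease that trims the flaps before ligation, averaged 10.02 ± 0.13 in knockdown cells and 9.50 ± 0.10 in Luc (SD, n = 6 and 3), higher by 0.52 without overlap (SE 0.11, limma adjusted p = 0.003488). Rpa2 encodes a subunit of the protein that coats single strands. Its brightest probe, ILMN_2602687, was higher by 0.73 without overlap (limma adjusted p = 0.01478), and of the other 2, both unseen in Luc, ILMN_2597840 passed narrowly (limma adjusted p = 0.04122) and ILMN_2543737 did not (limma adjusted p = 0.08013). The ILMN_2597840 call was lost when any array except Luc replicate 1 or hairpin 94 replicate 1 was left out, and the call of ILMN_2602687 after cyclic loess, with no filter on dim probes and under the scaling to probes detected on all arrays. The clamp itself gave no call in the main setting: the only Pcna probe was dim, detected on all 6 knockdown arrays and 2 Luc arrays, and differed by -0.40 (limma adjusted p = 0.0978). The Pcna probe was called lower after cyclic loess, with arrays scaled to probes detected on all of them, and without Luc replicate 1.

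Genes that supply deoxynucleotides rose where they passed. Of 10 detected probes of 5 genes, 5 were higher and 0 lower, with a median of 0.50. Tyms makes thymidylate, and its probe ILMN_1247173 gave 5.82, 5.35 and 5.32 log2 units with hairpin 94 and 5.70, 5.77 and 5.95 with hairpin 97, against 4.32, 4.24 and 4.41 in Luc. No Luc array detected it, so it passed the filter through the knockdown arrays alone. Under quantile normalization the signal was at least 1.63-fold higher in knockdown cells. The limma adjusted p of 0.0001457 belongs to the fitted difference of 1.33, not to this bound. With arrays scaled to probes detected on all of them, this Tyms call was lost, at a difference of 0.12 for the mean and -0.05 for hairpin 94. The brightest Tyms probe, ILMN_2484707, averaged 9.45 ± 0.36 in knockdown cells and 8.96 ± 0.35 in Luc (SD, n = 6 and 3), a difference of 0.49 that did not pass (limma adjusted p = 0.07533). A dim one, ILMN_2441895, differed by -0.02 (limma adjusted p = 0.9518).

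Rrm1 and Rrm2 encode the large and small subunits of ribonucleotide reductase. Rrm1 probe ILMN_1258715 gave 8.26, 8.05 and 8.06 with hairpin 94 and 8.08, 8.45 and 8.31 with hairpin 97, against 7.34, 7.16 and 7.56 in Luc. It was higher by 0.85 without overlap (SE 0.13, limma adjusted p = 0.0009375). Rrm1 probe ILMN_2977624 differed by 0.28 and did not pass (limma adjusted p = 0.1554). Rrm2 probe ILMN_2819319 gave 6.04, 6.57 and 6.23 with hairpin 94 and 6.73, 6.78 and 6.44 with hairpin 97, against 5.69, 5.54 and 5.87 in Luc, higher by 0.77 without overlap (SE 0.15, limma adjusted p = 0.002733).

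The other Rrm2 probe, ILMN_2714565, had a larger difference, 1.30 (SE 0.26, limma adjusted p = 0.002751), on values of 6.56, 6.54 and 6.17 with hairpin 94 and 7.04, 7.11 and 6.94 with hairpin 97, against 6.27, 5.11 and 4.91 in Luc. Luc replicate 1 stood above hairpin 94 replicate 3 there. Tk1, the salvage kinase for thymidine, was higher by 0.51 on probe ILMN_2605890 (limma adjusted p = 0.01275) with hairpin 94 replicate 3 level with Luc replicate 2 at 8.83, and by 0.22 on a dim probe that did not pass (limma adjusted p = 0.5181). Dut, which clears dUTP, differed by -0.16 (limma adjusted p = 0.4902).

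**Figure D2:**
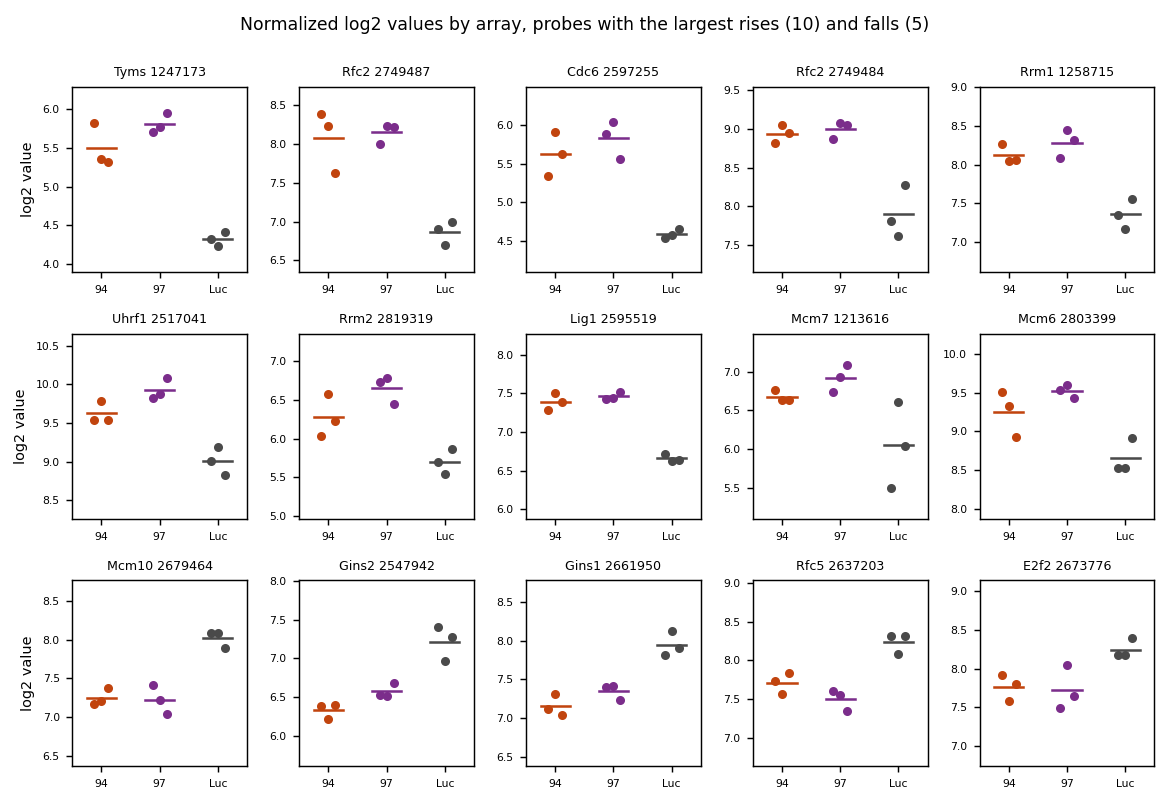
Normalized log2 value (vertical axis, a span of the same size in each panel) on each array for the 15 member probes with the largest differences past the threshold and no overlap, 10 higher and 5 lower, with hairpin 94, hairpin 97 and Luc from left to right. Points are arrays, bars group means of 3, and panel titles give gene and probe number. By this choice of probes, every knockdown point lies above every Luc point in the top rows and below in the bottom row, so the separation is no result. The bottom row turned higher when arrays were scaled to all probes. Tyms ILMN_1247173 and Cdc6 ILMN_2597255 were detected on 0 Luc arrays and entered through the knockdown arrays alone.

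Chromatin genes of the replication fork gave 2 higher probes of 3 detected, where 25.0% of all probes were higher. Uhrf1, which brings the maintenance methyltransferase to newly copied DNA, gave 9.54, 9.79 and 9.54 with hairpin 94 and 9.82, 9.87 and 10.08 with hairpin 97, against 9.003, 9.19 and 8.83 in Luc. It was higher by 0.77 without overlap (SE 0.13, limma adjusted p = 0.001231). The chromatin assembly factor subunits differed: Chaf1b was higher by 0.56 without overlap (limma adjusted p = 0.00918), and Chaf1a differed by -0.11 and did not pass (limma adjusted p = 0.4387).

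Of the E2F factors, E2f1 was higher by 0.33 without overlap (SE 0.11, limma adjusted p = 0.03418), a call that 6 of the 9 arrays could each end by being left out, among them Luc replicates 2 and 3. E2f2 probe ILMN_2673776 gave 7.92, 7.58 and 7.81 with hairpin 94 and 7.49, 8.05 and 7.65 with hairpin 97, against 8.17, 8.17 and 8.40 in Luc. It fell by 0.50 without overlap (SE 0.15, limma adjusted p = 0.02166), a call lost without Luc replicate 3, and it was 0.94 higher when arrays were scaled to all probes. The other detected E2f2 probe, ILMN_2836137, spread widely in every group and differed by 0.27 (limma adjusted p = 0.4788).

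A promoter window of 300 bases, 250 before the start and 50 after it, was given for 31 of the 36 members, in 37 windows, and not for Gins1, Gins2, Mcm4, Pole and Rfc2. The E2F letters occurred in 13 of the 37 member windows (35.1%), against 744 of 32851 windows over all promoters (2.26%). CCAAT occurred in 22 member windows (59.5%), against 37.4% of all. The letters of the cell cycle homology region, TTTGAA or TTCGAA on either strand, occurred in 6 (16.2%), against 19.2% of all. The median share of G and C was 57.7% in member windows, against 52.7% in all.

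Read against the expression calls, the E2F letters stood in 9 of the 22 windows of members whose calls were all higher, and in 1 of the 5 windows of members whose calls were all lower. That window belongs to E2f2. CCAAT stood in 11 of the same 22 windows and in 4 of the same 5. Orc1, undetected on these arrays, and Pola1 and Pold1, without a call, also had the letters. The TTTGAA or TTCGAA letters stood in the windows of Cdc45, E2f2, Fen1, Mcm2, Mcm7 and Rfc3.

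Probes of a gene often went in opposite directions, as they did over the whole array. Of 12 members with at least 2 detected probes, 6 had probes of opposite sign (50%), against 51.7% of 2669 genes. These were Mcm7, Mcm10, Tyms, Gins2, Rfc2 and E2f2. In the main setting only Gins2 among the members was called both ways, as were 268 genes of the whole array. Without background correction, and among probes detected on all arrays, Mcm10 was called both ways too. Lig1, Mcm6, Rpa2, Rrm1, Rrm2 and Tk1 kept all of their detected probes above 0. The Mcm10 probe ILMN_1252173, the Gins2 probe ILMN_1245109, the Rpa2 probe ILMN_2543737 and the only Rfc3 probe are assigned to cDNA clone records and the other detected member probes to RefSeq transcripts.

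**Figure D3:**
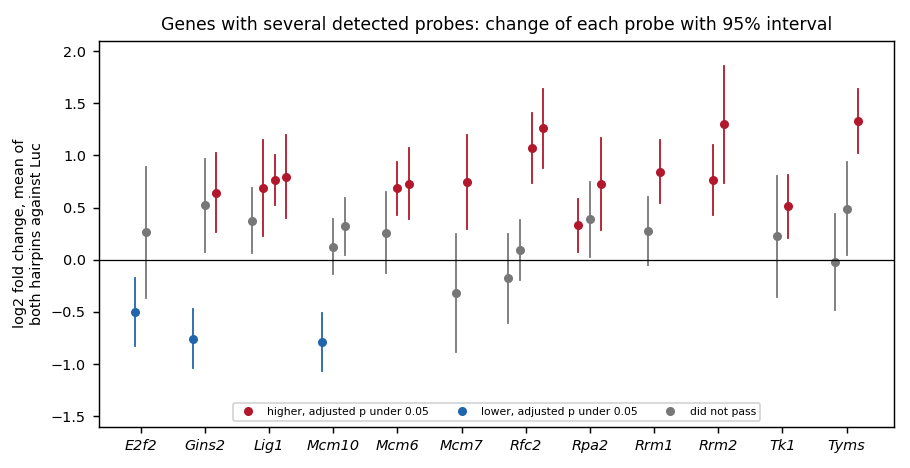
Log2 fold change (vertical axis), mean of both hairpins against Luc, of each detected probe of the 12 members with at least 2, with 95% intervals. Red points were higher and blue ones lower at an adjusted p under 0.05, and grey ones did not pass. Gins2 has a red and a blue probe, and the blue probes of E2f2, Gins2 and Mcm10 were higher when arrays were scaled to all probes.

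The hairpins were then compared directly. No member probe differed between hairpin 97 and hairpin 94 in limma, and 4 of the 54 had an unadjusted p under 0.05. Over all probes 0.0293% were higher and 0.110% lower with hairpin 97. The lowest adjusted p of a member was 0.422. The 95% intervals of the difference, hairpin 97 minus hairpin 94, ran from -0.82 to 1.25 over the members, and for 52 of them lay within 1 log2 unit of 0, while 33 included a difference of 0.5.

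As a description without a test, member probes were more often higher than lower with hairpin 97. Their median difference was 0.18, with 75.9% above 0, against a median of 0.0063 and 51.3% above 0 over all probes. That median was 0.11 without hairpin 94 replicate 3 and 0.09 without hairpin 97 replicate 5. All 11 licensing probes were on the hairpin 97 side, by 0.08 to 0.43.

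The widest gaps between the hairpins were those of Rrm2, Gins2 and Mcm3, none of which passed. Rrm2 probe ILMN_2714565 was 0.60 higher with hairpin 97 (interval -0.05 to 1.25). Gins2 probe ILMN_1245109 was 0.59 higher (interval 0.08 to 1.11), and Mcm3 0.43 higher (interval -0.08 to 0.95). On each of these probes, that of Rrm2 included, hairpin 94 replicate 3 was the lowest knockdown array. By array, the median log2 difference of the member probes from the Luc mean was 0.36, 0.36 and 0.32 with hairpin 94 and 0.42, 0.51 and 0.49 with hairpin 97, against -0.019, 0.014 and 0.0014 in Luc. All 3 hairpin 97 arrays thus lay above all 3 hairpin 94 arrays, which all lay above Luc.

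**Figure D4:**
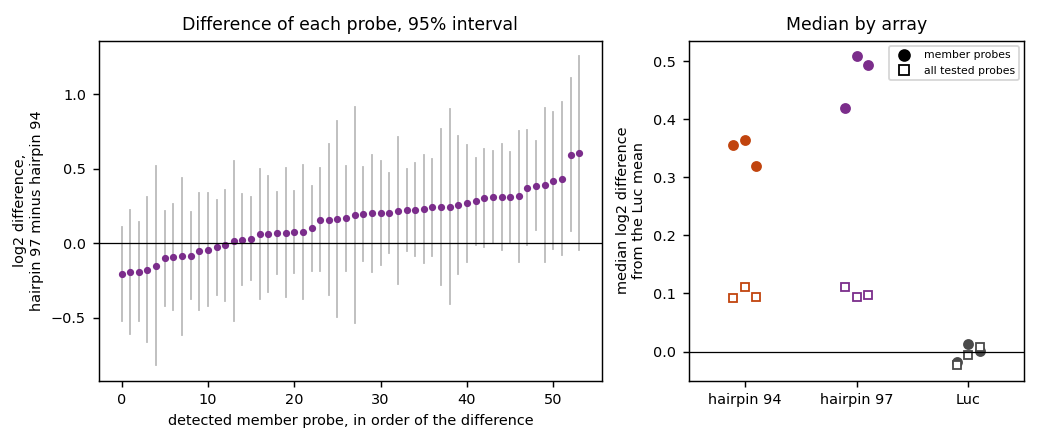
Left, difference of hairpin 97 minus hairpin 94 in log2 units for each of the 54 detected member probes, in order of size, with 95% intervals. Right, median log2 difference from the Luc mean on each array, over member probes (filled circles) and over all tested probes (open squares), for hairpin 94, hairpin 97 and Luc. On the left 41 points lie above 0, and on the right the member medians stand at 0.32 to 0.51 on knockdown arrays, against -0.019 to 0.014 on Luc arrays.

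Replication genes outside the 36 members are given under quantile normalization only. Of 53 detected probes of 34 further origin and replisome genes, 14 were higher and 9 lower, with a median of 0.06, which is near the 25.0% and 15.2% of all probes and so no result about these genes. Clspn, a fork protein that relays checkpoint signals, was higher on probes ILMN_2623056 and ILMN_2858359 by 0.96 and 0.94 (limma adjusted p = 0.004306 and 0.002778), while its probe ILMN_1241320 differed by -0.61 and did not pass (limma adjusted p = 0.09613). Timeless, its neighbour at the fork, was higher by 0.73 (limma adjusted p = 0.007406). Orc5, a subunit of the origin recognition complex, fell by 0.84 and 0.74 on its probes ILMN_1253844 and ILMN_1221363 (limma adjusted p = 0.001917 and 0.002133), and Prim2, the large primase subunit, by 0.63 on ILMN_2982965 (limma adjusted p = 0.002221). The other Prim2 probe, ILMN_2982969, differed by 0.20 and did not pass (limma adjusted p = 0.5572). Some larger differences were in other genes. Pole3 was higher by 1.56 on ILMN_1254553 (limma adjusted p = 0.0001267), while its other probes, at -0.17 and -0.41, did not pass. Topbp1 fell by 0.82 on ILMN_2579432 (limma adjusted p = 0.005287), and its other probe, at -0.28, did not pass. Top2a, the topoisomerase that untangles copied DNA, was higher by 0.65 on ILMN_2830661 (limma adjusted p = 0.003267).

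Among further nucleotide and chromatin genes, 10 of 16 detected probes were higher and 2 lower, with a median of 0.50. Over all probes 25.0% were higher and 15.2% lower. Dtymk, the kinase that acts after Tyms and Tk1, was higher by 1.16 on ILMN_2485787 (limma adjusted p = 0.0001267). Dnmt1, the maintenance methyltransferase that Uhrf1 recruits, was higher by 0.72 (limma adjusted p = 0.001529), and Nasp, a histone chaperone, by 0.74 on ILMN_2756008 (limma adjusted p = 0.001136). Nme1, a nucleoside diphosphate kinase, fell by 0.49 (limma adjusted p = 0.004303). Of 13 detected probes of other E2F and pocket protein genes, 5 were higher and 1 lower, beside the same shares over all probes. This count is too small to read as a result about the list. Rb1 was higher on both of its probes, by 0.92 and 0.56 (limma adjusted p = 0.01341 and 0.01285).

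Markers of the sorted cells and of other cell types were read on the same arrays. For the mean of both hairpins, 25.0% of all probes were higher and 15.2% lower. All 4 genes of the gate (Kit, Cd34, Fcgr3 and Fcgr2b) were detected, with 3 of their 7 detected probes higher, 0 lower and a median log2 difference of 0.28. With hairpin 97 alone against Luc, 3 of these probes were higher and 1 lower, and with hairpin 94 alone 2 and 0. Fcgr3 was higher by 1.12 (limma adjusted p = 0.0003412), and the brighter Kit probe differed by -0.32 (limma adjusted p = 0.1009). The gate list averaged 6.23 to 6.49 log2 units with hairpin 94 and 6.39 to 6.40 with hairpin 97, against 5.78 to 6.10 in Luc. Of the pan-leukocyte and myeloid markers, 5 of 6 detected probes were higher and 0 lower, with a median of 0.62, and Ptprc was undetected. That list averaged 8.45 to 8.60 with hairpin 94 and 7.98 to 8.23 with hairpin 97, against 7.64 to 7.74 in Luc. Neutrophil granule genes moved with the replication genes: 11 of 12 detected probes of 8 genes were higher and 0 lower. Their mean log2 level was 8.59 to 8.82 with hairpin 94 and 8.75 to 8.84 with hairpin 97, against 7.38 to 7.57 in Luc, and Mmp8 and Mmp9, genes of late neutrophils, were undetected. The part of these marker lists in the replication results was not tested. Several defining genes of other types were undetected, among them Klf1 (erythroid), Pax5 (B cells), Cd3e and Cd4 (T cells) and Pf4 (megakaryocytes), while the mast cell gene Cpa3 was higher on both of its probes. Each of these lists also held a detected gene, among them Cd79b of B cells and Gp9 of megakaryocytes, neither with a call. Csf1r and Adgre1 of monocytes and macrophages were detected without a call. Cxcl12 and Pecam1 of stroma were detected, with 1 of their 3 detected probes higher. Other genes of these lists were bright: Nkg7, of T and NK cells, averaged 8.82 ± 0.43 in knockdown cells and 9.47 ± 0.06 in Luc (SD, n = 6 and 3) and fell by 0.65 (limma adjusted p = 0.003234). Tfrc, the transferrin receptor of erythroid and dividing cells, fell by 0.82 on probe ILMN_2619848 (limma adjusted p = 0.00259) and differed by 0.22 on ILMN_2860804 without passing (limma adjusted p = 0.3011).

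The direction of single members depended on how arrays were scaled, while the member median stayed above that of all probes in each setting run. Scaling to all probes moved the median of all probes to 0.88 and called 48 member probes higher and 0 lower. Scaling to probes detected on all arrays moved it to -0.55, with 18 members higher and 17 lower. The main split was 81.2% higher among called members, against 51.4% under that scaling and 100% under scaling to all probes. Over all probes the same shares of calls were 62.2%, 15.6% and 99.9%. Relative to the median of all probes, the member median stood 0.30 higher as reported, 0.64 under both of these scalings and 0.27 after cyclic loess. Both scalings only shift each array by a constant, so their gap is the same by construction.

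**Figure D5:**
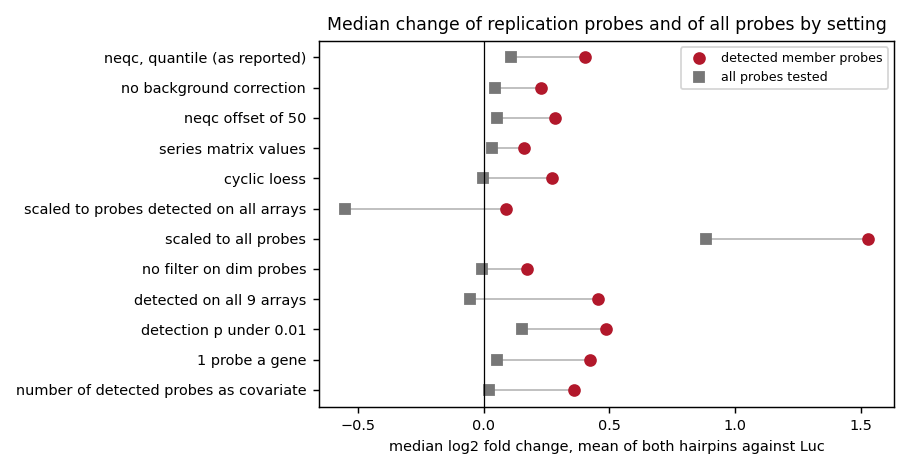
Median log2 fold change (horizontal axis), mean of both hairpins against Luc, over detected member probes (circles) and over all probes tested (squares) under each processing setting (rows). The circle lies right of the square in every row shown, by 0.13 to 0.64, while both shift together with the scaling. The rows scaled to all probes and to probes detected on all arrays have the same gap by construction.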

How the data were processed

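Total RNA of 9 samples, extracted with Trizol and labelled with biotin, was hybridised to Illumina bead arrays, per the labels' protocols. Deposited for each array are the average bead intensity of every probe and its detection p-value, per the file headers. A deposited table of log2 values had the rank order of these intensities (rank correlation 1), with the same distribution in each column, and served as an alternative. The software behind it was not given in the sources used here. No slide or scan date was found, and batches were not tested.

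From the intensities, neqc (limma 3.58.1, R 4.3.3, offset 16, quantile) gave normalized log2 values, and 13641 of 45281 probes were kept at a detection p under 0.05 on at least 3 arrays. The limma fit (lmFit, eBayes) took all 9 arrays with 1 mean for each group, and its 4 contrasts were tested per probe with Benjamini-Hochberg adjustment at 0.05. Where no Luc array detected a probe, a fold is a lower bound: the knockdown mean against, per Luc array, the higher of the probe's own signal and the lowest signal among detected probes. Fitted differences of such probes are not bounds. Replicate numbers come from the sample titles. Arrays of a group correlated at 0.9582 to 0.9901 and none were identical. The fit was checked on simulated data. The number of arrays limits the precision. Probes were named from the platform annotation (34885 with 1 symbol, 18 with several, 10378 with none listed), updated through GRCm38.p6 gene numbers (34807 matched).

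The members and lists were chosen with earlier results of these data known. Arrays are shown in full for up to 10 called probes in each direction, by size, on which no knockdown array overlapped Luc (10 higher, 5 lower). For members with probes of opposite sign, the called probes and both Mcm7 probes are shown in full. Their remaining probes are given by the difference only. Of the 3 largest differences between hairpins, that of Rrm2 is shown in full and the others by difference and interval. Other members and non-members were named after their values were seen. Alternatives covered background correction, normalization, filters, probes per gene, covariates, a replicate block and leaving out each array.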

Additional observations from a re-analysis of the deposited data

How the results depend on the processing

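Leaving out each array in turn gave 28 to 35 called member probes for the mean of both hairpins (32 with all arrays), 16 to 25 for hairpin 94 (24), 22 to 31 for hairpin 97 (31) and 0 in each case between the hairpins. The count for the mean of both hairpins stayed within 1.5 times under every alternative run except the covariate. When the fit held each array's detected-probe number as a covariate, 0 member probes were called for the mean, for hairpin 94 and for hairpin 97 (6, 7 and 6 at an unadjusted p under 0.05). For hairpin 94, 14 were called when only its arrays and Luc entered the fit, and 48 with arrays scaled to all probes. For hairpin 97, 20 were called among 33 genes with 1 probe a gene and 48 with arrays scaled to all probes. Over all probes, 62.2% of calls were higher in the main setting, 47.8% after cyclic loess, 15.6% with arrays scaled to probes detected on all of them and 99.9% with arrays scaled to all probes. The same shares over the called members were 81.2%, 74.1%, 51.4% and 100%. The number of detected probes per array limits what these arrays show, since dim probes were seen on fewer Luc arrays.

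Hairpin 94 and Luc share the replicate numbers 1, 2 and 3. Their deviations from the group means correlated by 0.0678, 0.0486 and 0.141, so the numbers were not taken to pair samples, and the replicate block gave 11 called member probes for hairpin 94 (8 higher, 3 lower). No block was fitted for hairpin 97, whose numbers are not shared, nor a fit of only the groups compared for the mean, which uses all 9 arrays.

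Directions reversed under the scalings, apart from 4 values. In the lists that follow, Rfc2 stands for ILMN_2424690, with ILMN_2894497 beside it for hairpin 97, and Mcm7 for ILMN_2673889. None of these was called in the main setting. Gins2 stands for ILMN_2547942 and E2f2 for ILMN_2673776. Mcm10 stands for ILMN_2679464 where it turned positive and for ILMN_1252173 where it turned negative. Tk1 stands for ILMN_2893926, and a single Lig1 value for ILMN_1213101. With arrays scaled to all probes, log2 differences turned positive for the mean of both hairpins (0.71 for Dut, 1.12 for Mcm2, 1.33 for Chaf1a, 1.27 for Rfc2, 0.654 for Gins2, 0.819 for Rfc5, 0.751 for Gins1, 0.943 for E2f2, 1.01 for Mcm7, 0.659 for Mcm10 and 1.07 for Cdc45), for hairpin 94 (0.675 for Dut, 0.917 for Mcm2, 1.29 for Chaf1a, 1.14 for Rfc2, 0.516 for Gins2, 0.903 for Rfc5, 1.43 for Pold1, 0.637 for Gins1, 0.951 for E2f2, 0.856 for Mcm7, 0.658 for Mcm10 and 0.937 for Cdc45) and for hairpin 97 (0.746 for Dut, 1.33 for Mcm2, 1.37 for Chaf1a, 1.39 and 1.46 for the Rfc2 probes, 0.793 for Gins2, 0.735 for Rfc5, 0.864 for Gins1, 0.936 for E2f2, 1.16 for Mcm7, 0.66 for Mcm10 and 1.2 for Cdc45). With arrays scaled to probes detected on all of them, differences turned negative for the mean (-1.03, -0.639 and -0.0344 for the Lig1 probes, -1.23 for Mcm10, -0.976 and -1.04 for the Rpa2 probes, -0.804 for Rfc3, -0.13 for Pole and -0.777 for Tk1), for hairpin 94 (-1.15 and -0.552 for the Lig1 probes, -0.0475 for Tyms, -1.25 for Mcm10, -0.851 and -0.965 for the Rpa2 probes, -0.913 for Rfc3, -0.0667 for Cdc6, -0.0818 for Pole and -0.659 for Tk1, with a member median of -0.0571) and for hairpin 97 (-0.919 for Lig1, -1.22 for Mcm10, -1.1 and -1.12 for the Rpa2 probes, -0.695 for Rfc3 and -0.895 for Tk1). Rfc3 was at -0.0427 for hairpin 94 after cyclic loess. With the covariate, the Gins2 probe called higher was at -0.136 and E2f2 at 0.212 for the mean, and E2f2 at 0.193 for hairpin 97. The cause of these was not tested.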
